A study of Mus musculus with 9 samples.

Results

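The genes described here are 9 genes by which mouse cells sense or clear DNA and other nucleic acids in the cytosol: Ifi203, Ifi204 and Ifi207 of the p200 (Ifi200) family, Zbp1, Tmem173 (the gene of STING), Tbk1, Irf3, Samhd1 and Trex1. They were chosen by name, with earlier results of these data known, out of 49315 gene IDs in the count table. RNA was sequenced from the whole brains of 5 young (3 months by the sample labels) and 4 old (33 months) mice, all male, of the strain C57BL/6J and of wild-type genotype. The mice were kept free of specific pathogens, received no treatment that the labels name, and each library came from 1 brain. The question was which of these transcripts differed in level between young and old brain, and how far the rest of the pathway moved with them.

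DNA does not belong in the cytosol, and cells read it there as a sign of infection or damage. The enzyme cGAS binds such DNA and makes a cyclic dinucleotide that activates STING on the endoplasmic reticulum; STING recruits the kinase TBK1, which phosphorylates the transcription factor IRF3, and IRF3 switches on type I interferon genes. ZBP1 binds left-handed Z-form nucleic acids and can start necroptosis through RIPK3 and MLKL, while SAMHD1, which breaks down deoxynucleotides, and TREX1, a DNA exonuclease, limit the nucleic acid that sensors can meet. Proteins of the p200 family carry HIN domains that bind DNA, and most also carry a pyrin domain. Their genes lie in 1 cluster on mouse chromosome 1, are known to be induced by interferon, and are expressed mainly in cells of the blood and immune lineages, microglia among them.

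Interferon acts on such genes through short promoter elements, of which the best known is the interferon-stimulated response element (ISRE). The RefSeq promoters (GRCm38.p6, from 250 bases before to 50 after each start) were therefore searched on both strands for ISRE-like letters, GAAA followed by any 2 bases and GAAA again. A promoter was held for 12 p200 genes, and 9 of them contained these letters. Over all 32851 promoters, which belong to 27025 genes, the share with a match was 3.44%. That share is per promoter, while a p200 gene was counted once if any of its promoters matched, so the units differ. The p200 genes with a match included Ifi203 and Ifi207, and the 3 without one were Aim2, Ifi209 and Ifi202b. Windows of 60 bases around the match are shown for 6 of the genes, since they show where promoters of this cluster share letters and where they differ; they are written 5′ to 3′ in the direction of the gene, with the matched letters in capitals.

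Ifi203, chr1:173942493-173942552, minus strand: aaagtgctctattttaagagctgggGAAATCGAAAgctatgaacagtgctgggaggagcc

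Ifi207, chr1:173741816-173741875, minus strand: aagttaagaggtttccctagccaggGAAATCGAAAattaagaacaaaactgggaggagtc

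Ifi205, chr1:174031855-174031914, minus strand: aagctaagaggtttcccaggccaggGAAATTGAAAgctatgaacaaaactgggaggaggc

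Ifi211, chr1:173913049-173913108, minus strand: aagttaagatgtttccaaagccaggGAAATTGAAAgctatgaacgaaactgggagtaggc

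Ifi206, chr1:173491324-173491383, minus strand: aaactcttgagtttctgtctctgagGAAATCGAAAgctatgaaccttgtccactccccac

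Ifi213, chr1:173599311-173599370, minus strand: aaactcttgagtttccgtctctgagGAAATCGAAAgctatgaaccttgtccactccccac

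In the 9 windows, 7 matches read the letters seen in Ifi203 and the other 2, in Ifi205 and Ifi211, differ from them at a single base. The matches began between 35 and 134 bases before the start. Among the 36 pairs of windows between 28 and 60 of the 60 bases were identical, and 2 pairs were identical throughout, Ifi203 with Mndal and Ifi208 with Ifi213. The windows were lined up on the match, whose bases are counted among the 60, and matches in paralogs are not independent observations. No ISRE-like match was found in the promoters held for Samhd1, Tbk1, Irf3 and Trex1. No promoter was held for Ifi204 and Zbp1. Tmem173 was not searched, since it lies on chromosome 18, whose promoters were left out. The letters TTCNNNGAA, as in elements bound by STAT proteins, occurred in the promoter of Samhd1, 235 bases before its start, and in 8.3% of all promoters searched. A match describes letters only, and binding was not measured.

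Counts on genes ranged from 14229259 to 21150439 per library and did not differ detectably in mean between the ages (two-sided exact permutation test, p = 0.698). The levels are given as CPM, counts scaled to the library's total after TMM normalization (CPM stands for counts per 1e+06), and a gene passed the test at a Benjamini-Hochberg adjusted p under 0.05 over 18492 genes in edgeR's quasi-likelihood test. A pair of libraries had high sums of cell markers for their age. A check for samples far from the others of their age covered 48 combinations of a value and an age. It found 0 far samples, where chance would give 2.4, so neither library was an outlier by it. In young replicate 4 the summed CPM of 8 markers of activated microglia was 151.5, while the other young mice had 86.8 to 102.2 and the old mice 127.2 to 175. That of 10 markers of homeostatic microglia was 325.9, while the other young mice had at most 264.5 and the old mice 308.4 to 367.2. In old replicate 4 the summed CPM of 8 markers of monocytes and neutrophils was 90.1, while the lowest old mouse had 3.74 and the young had 1.38 to 2.51. Of the marker lists, the genes that passed the test with higher levels in old brain were 1 of 10 for homeostatic microglia, 3 of 8 for activated microglia, 2 of 6 for border macrophages, 1 of 2 for B and plasma cells, 3 of 5 for erythroid cells, 2 of 6 for endothelial cells and 2 of 6 for oligodendrocytes, of which 1 more was lower. For neurons 1 of 6 was lower. Over all tested genes 6.09% passed with higher and 4.89% with lower levels in old brain. For 6 astrocyte, 3 monocyte and neutrophil and 1 T and NK cell gene, edgeR gave 0 passing genes; at an unadjusted p under 0.05 these lists had 1, 3 and 1. DESeq2 passed 1 of the astrocyte genes and 0 of the T and NK cell list, and gave no adjusted p for the 3 monocyte and neutrophil genes. Neuronal, astrocyte and oligodendrocyte markers, which whole brain should hold, summed to at least 4691, 4124 and 6089 CPM in each library.

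Of the 9 genes, Ifi203, Ifi207, Zbp1, Tmem173 and Samhd1 were higher in old brain, and Ifi204 had a higher mean in old brain but did not pass the test. Tbk1 and Irf3 overlapped between the ages and did not pass. Trex1 had no counts. Of all genes tested, 11.0% passed, 6.09% higher and 4.89% lower in old brain, and 2.13% were higher with a log2 fold change over 0.58 as well. The 5 genes that had enough counts in both ages were Ifi203, Tmem173, Samhd1, Tbk1 and Irf3, and 3 of them passed. Ifi204, Ifi207 and Zbp1 reached the count filter of 0.549 CPM in 4 libraries only through the old mice. A gene as low as these in young mice could be tested only if old mice exceeded the filter, so their number supports nothing.

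**Figure D1:**
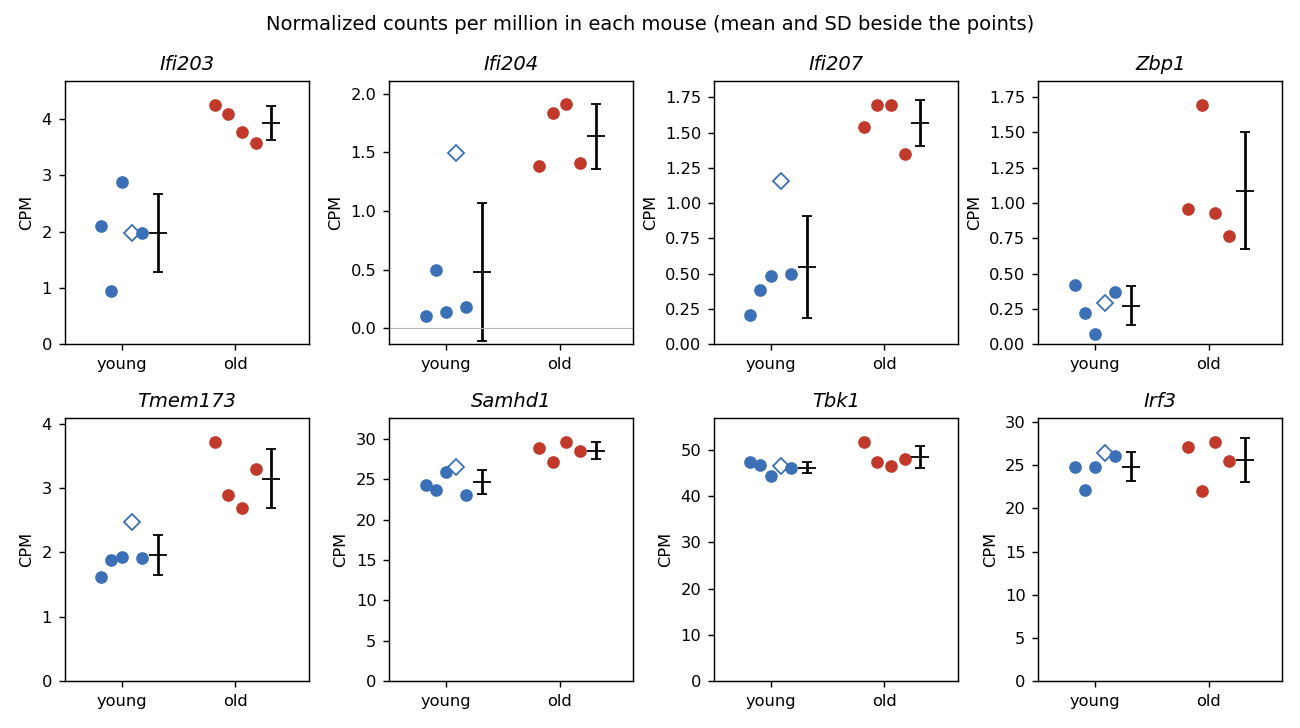
CPM on a linear axis in each of 5 young (blue) and 4 old (red) mice for the 8 genes with counts, with the mean and SD in black and young replicate 4 as an open diamond. The ages do not overlap for Ifi203, Ifi207, Zbp1, Tmem173 and Samhd1, young replicate 4 lies among the old mice for Ifi204, and Tbk1 and Irf3 overlap.

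Ifi203 (ENSMUSG00000039997, chromosome 1, 173920407 to 173942672, minus strand, GRCm38) had the highest mean TPM of the 3 p200 genes listed. Its CPM was 2.09, 0.941, 2.89, 1.98 and 1.98 in young replicates 1 to 5 and 4.25, 4.09, 3.78 and 3.58 in old replicates 1, 3, 4 and 5. Each old mouse lay above each young mouse, and the young mice varied more than the old. The means were 1.98 ± 0.692 (SD, n = 5) and 3.92 ± 0.302 (SD, n = 4). The log2 fold change was 1.003 (standard error, SE, 0.210, 95% interval 0.56 to 1.45, edgeR adjusted p = 0.00545). Of all genes tested, 6.50% were higher and 6.08% lower in old brain with no overlap between the ages. Ifi203 shares 0.552% of its exonic bases with Mndal on the same strand, and 0.827% of its 150-base stretches recur in Mndal or the pseudogene Ifi203-ps.

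Ifi207 (ENSMUSG00000073490, chromosome 1, 173723427 to 173741747, minus strand) was at 0.209, 0.387, 0.481, 1.16 and 0.494 CPM in young and at 1.54, 1.69, 1.70 and 1.35 CPM in old mice. The ages did not overlap, but young replicate 4 lay closer to the old mice than to the other young. Ifi207 rose by a log2 fold change of 1.47 (SE 0.330, 95% interval 0.78 to 2.17, edgeR adjusted p = 0.00808), from 4 to 24 counts in young libraries to 23 to 31 in old ones. Without young replicate 4, the highest young mouse, the log2 fold change was by necessity larger, at 2.01 (edgeR adjusted p = 0.000214). With any other single library left out it was at least 1.26, with an edgeR adjusted p of at most 0.0235. None of its 150-base stretches recurs in another gene.

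Ifi204 (ENSMUSG00000073489, chromosome 1, 173747293 to 173766943, minus strand) is the p200 gene often set beside human IFI16, a DNA sensor that signals through STING. Its CPM was 0.105, 0.498, 0.137, 1.497 and 0.185 in young and 1.38, 1.83, 1.92 and 1.41 in old mice. Among the young mice, 4 lay far below the old, and young replicate 4, with 31 counts where the others had 2 to 9, lay within the old range. With that mouse the log2 fold change was 1.63 (SE 0.568, 95% interval 0.37 to 2.90) and did not pass the test (edgeR adjusted p = 0.0991), although DESeq2's Wald test, which the study used, gave an adjusted p of 0.0206. Without it the log2 fold change was 2.75 (edgeR adjusted p = 0.000109). This mouse was singled out by its high Ifi204 value, so leaving it out must raise the fold change. With any other single library left out, the log2 fold change was 1.36 to 1.71. Ifi204 then did not pass (edgeR adjusted p from 0.141 to 0.186). Of its 150-base stretches 6.77% recur in Ifi211, so a small part of its reads was not counted if they mapped to both.

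Young replicate 4 thus lay well above the other young mice in Ifi204 and Ifi207, though not as a far sample by the check above, and not in every gene of the list. On the log2 CPM scale it exceeded the mean of the other 4 young mice by 2.34 for Ifi204 and by 1.37 for Ifi207, where the old mice exceeded it by 2.45 and 1.77. For Ifi203 and Zbp1 its excess was 0.10 and 0.19, within the range of the other young mice, where the old mice were 1.04 and 1.70 higher. Tmem173 lay between, at 0.41 against 0.73. Of the 8 activated microglia markers, whose list was written after the tables were seen, 7 were higher in this mouse than in each other young mouse. Itgax (9.71 CPM), Clec7a (7.29 CPM) and Lpl (29.1 CPM) lay above each of the old mice, Lgals3 (3.24 CPM) and Gpnmb (7.68 CPM) lay below each of them, and the other 3 lay within the old range. In whole brain RNA, more microglia and more of these transcripts per microglial cell cannot be told apart, and the part of either in these values was not tested.

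**Figure D2:**
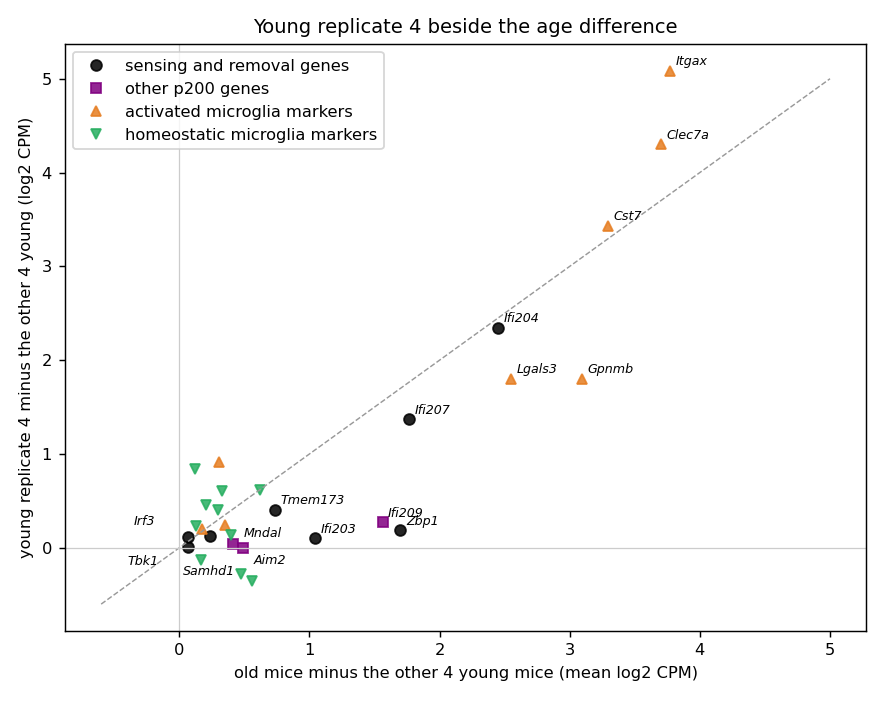
Log2 CPM of young replicate 4 minus the mean of the other 4 young mice (vertical) against that of the 4 old mice minus the same mean (horizontal), 1 point per gene, with a dashed line where both are equal. Ifi204 and Ifi207 lie below the line, and the activated microglia markers lie from 0.20 to 5.09 on the vertical axis. Ifi203, Zbp1, Ifi209 and Aim2 reach at most 0.27 on that axis.

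Zbp1 (ENSMUSG00000027514, chromosome 2, 173206612 to 173218923, minus strand) had the lowest mean TPM of the 8 genes with counts. Its CPM was 0.418, 0.221, 0.0687, 0.290 and 0.371 in young and 0.956, 1.69, 0.930 and 0.763 in old mice. All old mice lay above all young mice, and young replicate 4 was unremarkable. These values rest on 1 to 8 counts in young and 13 to 24 in old libraries. The log2 fold change was 1.90 (SE 0.370, 95% interval 1.12 to 2.68, edgeR adjusted p = 0.00347). DESeq2 gave a log2 fold change of 1.94 and no adjusted p, since the mean of 11 normalized counts lay under its own threshold of 13.5.

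Tmem173 (ENSMUSG00000024349, chromosome 18, 35733679 to 35740554, minus strand) encodes STING, the adaptor on which DNA sensing by cGAS converges. It was at 1.62, 1.88, 1.92, 2.46 and 1.92 CPM in young and 3.72, 2.89, 2.68 and 3.29 CPM in old mice. The ages did not overlap, and young replicate 4 was the highest of the young. The log2 fold change was 0.68 (SE 0.168, 95% interval 0.32 to 1.03, edgeR adjusted p = 0.0148). Without old replicate 1, the highest mouse, the adjusted p was 0.0563 at a log2 fold change of 0.59.

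Samhd1 (ENSMUSG00000027639, chromosome 2, 157097533 to 157135265, minus strand) rose by a small amount. It was at 24.3, 23.6, 25.8, 26.5 and 23.1 CPM in young and 28.9, 27.2, 29.7 and 28.5 CPM in old mice. The ages did not overlap, with a gap of under 1 CPM between young replicate 4 and old replicate 3. The log2 fold change was 0.21 (SE 0.0567, 95% interval 0.093 to 0.33, edgeR adjusted p = 0.022), under the fold change threshold of 0.58. The adjusted p was 0.0542 without young replicate 5 and 0.0664 without old replicate 4, the library with the monocyte and neutrophil markers.

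The kinase and the transcription factor downstream of STING were level. Tbk1 (ENSMUSG00000020115, chromosome 10, 121546455 to 121586787, minus strand) was at 47.4, 46.6, 44.3, 46.5 and 46.0 CPM in young and 51.8, 47.4, 46.5 and 48.1 CPM in old mice. The ages overlapped, and the log2 fold change was 0.069 (95% interval -0.027 to 0.16, edgeR adjusted p = 0.37). Irf3 (ENSMUSG00000003184, chromosome 7, 44997648 to 45002848, plus strand) was at 24.8, 22.2, 24.8, 26.4 and 26.1 CPM in young and 27.1, 22.1, 27.7 and 25.5 CPM in old mice. Here both the lowest and the highest mouse were old. The log2 fold change was 0.049 (95% interval -0.10 to 0.20, edgeR adjusted p = 0.717), and the intervals of both genes lie below a log2 fold change of 0.58. Both had the opposite sign on the TPM scale, where the median of all genes was -0.14 on the log2(TPM + 1) scale. On that scale Ifi203, Tmem173 and Samhd1 kept a higher value in old brain but did not pass (limma adjusted p = 0.0685, 0.249 and 0.909).

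Trex1 (ENSMUSG00000049734, chromosome 9, 109057933 to 109059734, minus strand) had 0 counts in all 9 libraries. All of its 1147 exonic bases lie within exons of Atrip on the same strand, and reads that fall on 2 genes are left unassigned by default in featureCounts. The 0 therefore does not measure the level of Trex1, and no upper limit is given. Atrip, a partner of the ATR kinase in the DNA damage response, had 36 to 57 counts per library and a log2 fold change of -0.24 (SE 0.155, edgeR adjusted p = 0.356).

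The levels of the genes were compared with each other in TPM, which divides counts by gene length. Tbk1 had the highest mean TPM over the 9 libraries, 38.6, followed by Irf3 with 18.2, Samhd1 with 7.15 and Tmem173 with 2.65. The ranges of these neighbours did not overlap each other, nor did that of Tmem173 overlap that of Ifi203. Below them Ifi203 (1.05), Ifi207 (0.680), Ifi204 (0.646) and Zbp1 (0.417) had ranges that each overlapped with that of its neighbour in the order.

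The rest of the p200 cluster was read from a fit of every gene with a count, since only 3 of the other 11 p200 genes in the table (Aim2, Mndal and Ifi209) passed the count filter. In this fit 4.30% of 35028 genes, those with very few counts included, passed with higher levels in old brain. Of all 14 p200 genes 7 did. At most 3 counts per age fell on Ifi202b, Ifi205 and Ifi214, for which no fold change is given. The other 11 genes, Ifi203, Ifi204 and Ifi207 included, all had a higher value in old brain, with log2 fold changes from 0.33 to 2.35 and a median of 1.62, and 7 of them passed. These were Ifi203, Ifi204, Ifi207, Aim2, Ifi206, Ifi209 and Ifi213. With the count filter 6 of the p200 genes were tested and 4 passed, Ifi203, Ifi207, Aim2 and Ifi209, while Ifi204 did not. With that filter 6.09% of all tested genes passed with higher levels in old brain. Ifi204, Ifi207 and Ifi209 reached the filter only through the old mice, so that the number passing supports nothing. Ifi203, Aim2 and Mndal reached it in both ages, and of these Mndal did not pass. Since neighbouring p200 genes are paralogs and are counted in the same mice, these are not independent observations.

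Ifi213 had 4, 4, 1, 5 and 3 counts in young and 9, 22, 19 and 18 counts in old mice. No old mouse had as few as any young mouse, and the log2 fold change was 2.35 (SE 0.404, edgeR adjusted p = 5.22e-07 in the fit without a count filter). Ifi206 had 1 or 2 counts in young and 5 to 9 in old libraries, a log2 fold change of 2.33 (SE 0.601, edgeR adjusted p = 0.00269 without a count filter). Ifi209 passed both fits, with a log2 fold change of 1.98 in the fit with the count filter (SE 0.387, edgeR adjusted p = 0.00351), which it reached through the old mice only. Ifi208 (1.62), Ifi211 (1.87) and the pseudogene Ifi203-ps (1.61) had similar values but between 0 and 10 counts per library, and did not pass (edgeR adjusted p from 0.0538 to 0.111). Of the 150-base stretches of Ifi211, 46.4% recur in Ifi204, Ifi205 or Mndal.

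**Figure D3:**
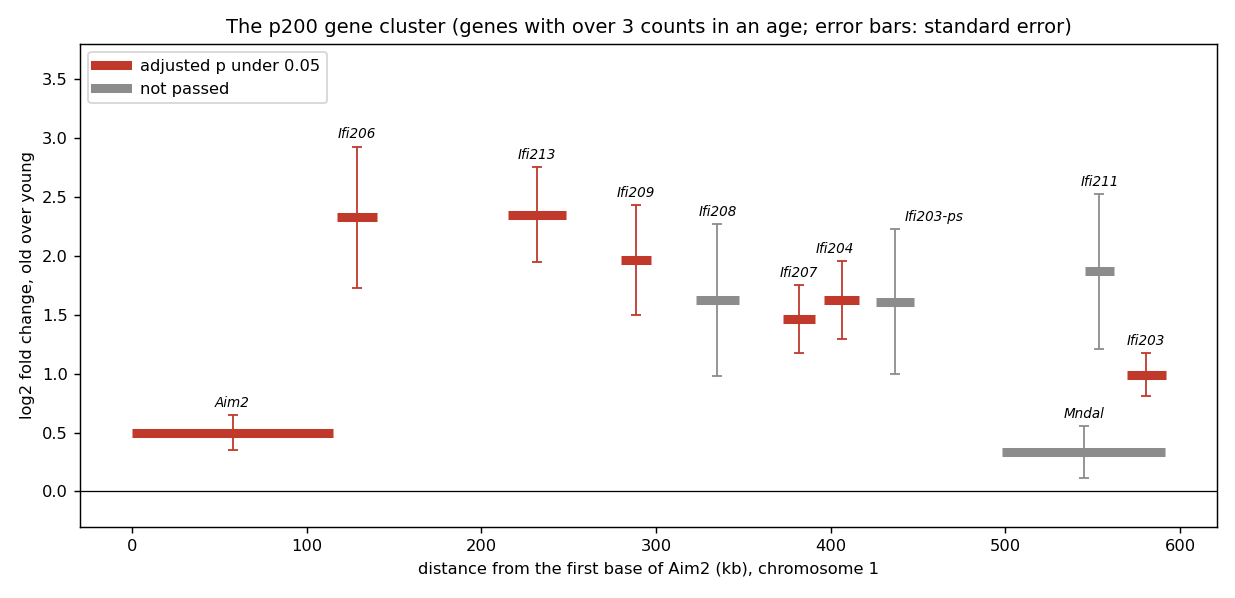
Log2 fold change, old over young, of the 11 p200 genes with over 3 counts in an age, from the fit without a count filter, drawn over each gene's span in kb from the first base of Aim2 (bars, standard error; red, adjusted p under 0.05). All lie above 0, Mndal and Aim2 lowest, and Ifi213 highest at 2.35.

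Aim2, the p200 sensor that builds an inflammasome, also rose. It was at 3.44 to 3.77 CPM in young and 4.70 to 5.80 CPM in old mice, without overlap, at a log2 fold change of 0.51 (SE 0.120, edgeR adjusted p = 0.0111). Its share of the summed p200 CPM was 40.9% in young and 29.6% in old mice, while that of Ifi203 was 22.3% and 22.6% and that of Ifi213 2.09% and 5.93%. The summed CPM of all 14 genes was 8.87 ± 1.40 (SD, n = 5) in young and 17.4 ± 1.32 (SD, n = 4) in old brain, and 10.7 in young replicate 4. The log2 ratio was 0.97. Mndal did not pass, at a log2 fold change of 0.34 (95% interval -0.16 to 0.85, edgeR adjusted p = 0.4).

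Upstream of STING, 24 further sensors of nucleic acids and their cofactors were tested. Cgas, the enzyme that makes the ligand of STING, had a mean of 1.43 ± 0.237 CPM (SD, n = 5 young) and of 1.49 ± 0.375 CPM (SD, n = 4 old), and its log2 fold change was 0.061 with a 95% interval of -0.40 to 0.52 (edgeR adjusted p = 0.894). Of the list, edgeR passed 0 genes with higher and 1 with lower levels in old brain, Polr3k, a subunit of RNA polymerase III (-0.21, edgeR adjusted p = 0.0155). By edgeR 6.09% of all tested genes were higher and 4.89% lower. At an unadjusted p under 0.05 there were 3 higher and 4 lower in the list, and by DESeq2 0 and 1. The median log2 fold change was -0.0004, beside -0.0001 over all genes.

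Among 25 partners and regulators of STING and TBK1, 3 were higher and 2 were lower in old brain, at a median log2 fold change of 0.0087. The shares over all tested genes were 6.09% higher and 4.89% lower. Irf7, the interferon-inducible relative of IRF3, was at 1.15 to 2.46 CPM in young and 4.52 to 14.03 CPM in old mice (log2 fold change 2.06, SE 0.345, edgeR adjusted p = 0.00603). It was higher in each old mouse than in any young mouse, where Irf3 was level. Nfkbia, the inhibitor of NF-κB, rose by 0.35 (edgeR adjusted p = 0.00449) and Trim56, a ubiquitin ligase that acts on STING and cGAS, by 0.32 (edgeR adjusted p = 0.0114). Traf3, an adaptor of TBK1, fell by 0.20 (edgeR adjusted p = 0.0136), and Tmem203, which overlaps Ndor1 on the opposite strand over 35.1% of its exonic bases, fell by 0.31 (edgeR adjusted p = 0.0415, 0.0539 by DESeq2).

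In the list of enzymes and transporters that remove, edit or move nucleic acids and cyclic dinucleotides, 19 of 21 genes were tested, with a median log2 fold change of -0.012. Of these 3 were higher in old brain and 1 was lower, beside 6.09% and 4.89% of all tested genes. Apobec3, a cytidine deaminase, rose from 3.98 ± 0.644 (SD, n = 5) to 7.19 ± 0.608 CPM (SD, n = 4), a log2 fold change of 0.84 (edgeR adjusted p = 0.000464). It shares 7.15% of its exonic bases with D730005E14Rik on the same strand. Isg20, an interferon-inducible RNA exonuclease, rose by 1.09 (edgeR adjusted p = 0.00595), and Pld4, an exonuclease of the endolysosome found in microglia, by 0.78 (edgeR adjusted p = 0.0452). Pld4 overlapped between the ages, since young replicate 4 reached the old range. Smpdl3a fell by 0.23 (edgeR adjusted p = 0.0215), and the 3 subunits of RNase H2 and Adar did not pass, with log2 fold changes between -0.15 and 0.0001.

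**Figure D4:**
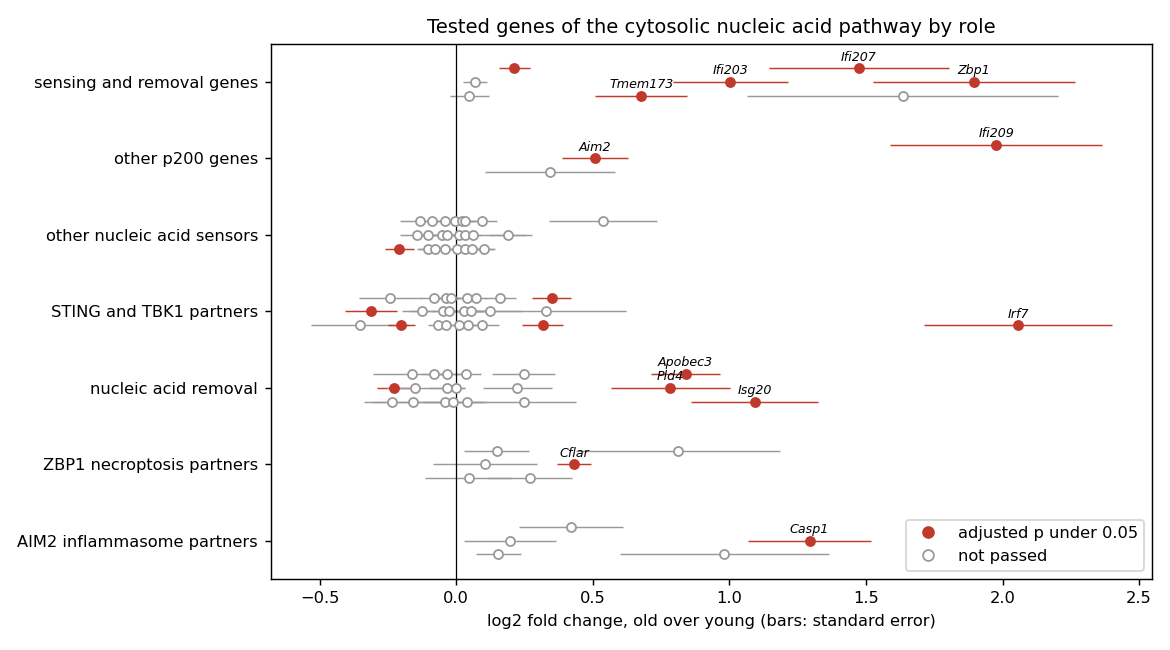
Log2 fold change, old over young, with its standard error for each tested gene, grouped by role (filled red, adjusted p under 0.05; open grey, not passed). Ifi203, Ifi207, Ifi209, Zbp1, Tmem173, Irf7, Isg20, Casp1, Apobec3 and Pld4 stand to the right. Ifi204, Mlkl and Casp4 do as well but did not pass. Aim2 and Mndal lie nearer to 0, and most sensors and STING partners lie around 0.

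Of the partners of ZBP1 in necroptosis, 6 of 7 were tested and 1 passed, where 6.09% of all tested genes passed with higher levels in old brain. A single pass in so short a list says nothing about the list as a whole. Cflar, which restrains caspase-8, rose from 19.3 to 21.6 CPM in the young to 26.0 to 30.0 CPM in old mice (log2 fold change 0.43, SE 0.0614, edgeR adjusted p = 0.000292). The kinase gene Ripk3 was under the count filter, with 21 counts in all young and 32 in all old libraries, and Mlkl, which perforates the membrane, had a log2 fold change of 0.81 with a 95% interval of 0.023 to 1.60 (edgeR adjusted p = 0.182). Of the partners of AIM2 in the inflammasome, 5 of 7 were tested and 1 passed, a list as short and subject to the same limit. Casp1, its protease, was at 0.553 to 1.69 CPM in young and 2.76 to 3.70 CPM in old mice (log2 fold change 1.29, SE 0.226, edgeR adjusted p = 0.00149). On log2(TPM + 1), Irf7, Isg20, Pld4 and Casp1 passed as well, whereas Polr3k, Nfkbia, Trim56, Traf3, Tmem203, Apobec3, Smpdl3a, Cflar, Aim2 and Ifi209 did not (limma adjusted p from 0.0696 for Apobec3 to 0.711 for Trim56).

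The genes of type I and type III interferons, the output of this pathway, were all but unread. Of 20 such genes 16 had 0 counts in all 9 libraries, and the list had 9 counts in all young and 6 in all old libraries. For a gene with 0 counts, a level of up to 0.0337 CPM over the young and 0.0439 CPM over the old libraries is allowed (3 counts, counting error only). A difference between the ages was not detectable at this depth.

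The tested genes whose log2 CPM followed that of Ifi204 and Samhd1 most closely over the 9 libraries were listed as a description. For Ifi204 they were Fyb, Fcgr2b, Il6ra, Pld4 and Laptm5, with Pearson's r between 0.973 and 0.982, and r between 0.93 and 0.97 once the mean of each age was removed. Without young replicate 4, the young mouse with the most Ifi204 counts, the latter r was between 0.69 and 0.90. For Samhd1 they were C5ar1, Ntn5, Rere, Marc2 and Dop1a, with r between 0.945 and 0.973, and between 0.80 and 0.89 within ages. The 5 genes of each set were picked as the closest among all tested genes, and the libraries share the split by age, so these values say only which patterns were alike. No gene was shared between the sets.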

How the data were processed

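RNA-seq libraries (polyA selection, ERCC spike-in) of 5 young and 4 old mouse brains were used. In each deposited table (3 in all) 1 column, headed as old replicate 2, matched no sample label and was not used here, so that old means rest on 4 mice. According to the study's methods the authors trimmed reads with Trimmomatic, aligned them to GRCm38 with STAR and counted unique reads over exons (featureCounts). The counts were deposited without normalization. A second table, the normalized count signal of 17994 genes, holds the same counts after the authors divided them by 1 size factor per library. Another holds TPM values from the authors, whose gene lengths are not given in the sources used here. Strand-specific counting is stated for strand-specific libraries only. The submitters' processing notes name DESeq2 and mm10.

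From the counts, 18492 genes were kept with filterByExpr (minimum count 10, minimum total 15), normalized with TMM and tested with edgeR's quasi-likelihood test with robust shrinkage and Benjamini-Hochberg adjustment (edgeR 4.0.16 and, for alternatives, DESeq2 1.42.0 and limma 3.58.1 in R 4.3.3). Called genes also had an absolute log2 fold change over 0.58. A prior count of 2 was used for log2 CPM. Standard errors came from the fold change and the test statistic. Symbols, positions and overlaps were taken from GENCODE M21, in which 48970 of 49315 IDs had a symbol. Libraries of one age differed by more than sampling noise (chi-square per degree of freedom at least 4.04). In 5 simulations of this comparison, 81.5% to 88.5% of 200 genes changed by a log2 fold change of 1 among 18492 were called, 5.41% to 11.1% of calls were unchanged genes, and 0 or 1 gene was called where none had changed. The changed genes were drawn at random from all tested genes. These rates therefore do not describe genes with as few counts as Ifi203, Ifi204, Ifi207 and Zbp1.

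The 9 genes, the pathway and marker lists and the tests were chosen with earlier results of these data known. The list of activated microglia markers was written after the tables were seen. Named were the 9 genes, genes of the lists that passed the test, and for Ifi204, Zbp1 and Samhd1 (the most abundant of the genes that passed) the 5 genes of most similar log2 CPM (those for Zbp1 are not reported here); Cgas, Mlkl, Ripk3, Mndal, Atrip, Adar and p200 genes below the count filter were named after their values were seen. Alternatives were other size factors, DESeq2, other filters, the deposited TPM and normalized counts on log2 scales with limma, a replicate block, other thresholds and each library left out, with the quasi-likelihood fit without robust shrinkage added later.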

Additional observations from a re-analysis of the deposited data

How the results depend on the processing

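The direction of Ifi203, Ifi204, Ifi207, Zbp1, Tmem173 and Samhd1 was higher in old brain under each alternative that was run. Tbk1 and Irf3 reversed on TPM scales, with log2 fold changes of -0.0946 and -0.1169 on log2(TPM + 1), with and without a filter, and -0.0967 and -0.123 on log2(TPM + 0.1), where the median of all genes was -0.1415, -0.0712 and -0.1618. On log2(TPM + 1) 3 of the 9 genes passed, with Ifi203 (0.417), Tmem173 (0.3762) and Samhd1 (0.0399) lost and Ifi204 (0.6699) gained. On log2(TPM + 0.1) 3 passed, with Ifi203 (0.8088), Tmem173 (0.4995) and Samhd1 (0.0466) lost and Ifi204 (1.7784) gained. On log2(TPM + 1) without a filter limma passed 0 of them, with Ifi207 at 0.5625 and Zbp1 at 0.5051. Ifi204 also passed with DESeq2 (1.7116), without a count filter (1.6266) and on the deposited normalized counts (2.1877). At an adjusted p under 0.01, 3 passed. The cause of these moves was not tested. The mice of the same number did not deviate together (correlations 0.17, -0.12, 0.088 and -0.024), and with the replicate number as a block 3 genes passed, Tmem173 (0.663) and Samhd1 (0.1987) having adjusted p of 0.0547 and 0.0574. With each library left out, 4 to 6 of the genes passed, and the log2 fold change was 1.363 to 2.7542 for Ifi204, 0.5871 to 0.7827 for Tmem173 and 0.1932 to 0.2404 for Samhd1. Over all genes 463 were called (394 higher, 69 lower), 707 without a count filter, 256 at an adjusted p under 0.01, 2031 with no minimum fold change, 32 on log2(TPM + 1) without a filter, 380 on log2(TPM + 1) with it (217 higher, 163 lower), and 379 to 592 with a library left out. The summed p200 log2 ratio was 1.25 over Ifi203, Ifi204 and Ifi207 alone. DESeq2 gave no adjusted p for Zbp1, and Trex1 had no value under any alternative. Ifi204, Ifi207 and Zbp1 rest on 1 to 35 counts per library. With a count filter, Ifi207 and Zbp1 passed edgeR's test. Ifi204 passed that filtered test only without young replicate 4, the young mouse with the most Ifi204 counts. Since these genes reached the count filter only through the old mice, the number of them that passed supports nothing.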
